A study of Sus scrofa with 63 samples.

Results

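The newborn liver at stage 1 dpn was set against the fetal liver at 94 dpc, the liver at weaning at 28 dpn and the liver of finishing pigs at 188 dpn, all at once. The arrays of 1 dpn numbered 16 of 63, with 16 at 94 dpc, 15 at 28 dpn and 16 at 188 dpn, 1 array per animal, and were chosen by their stage label alone (HP 17 to HP 32 of the array titles). For each probe-set the mean at 1 dpn was compared with the highest and with the lowest of the 3 other stage means, in order to find transcripts that stood above every other stage (a newborn peak) or below every other stage (a newborn trough). The distance from the nearest other stage mean is called the margin and is given on the log2 scale.

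All animals were German Landrace offspring of gilts on a gestational high protein diet, and offspring of the adequate protein diet were not analysed here, so no value describes an effect of the diet. The fetuses of 94 dpc were taken by Caesarean section in a separate experiment with other sows and killed with T61. Newborns were killed on the second day after birth with propionyl-promazine and ketamine, and the lightest and heaviest of a litter had been chosen at 94 dpc and 1 dpn. The older pigs had been cross-fostered at birth, were fasted overnight and were killed by electronarcosis and exsanguination. The manner of killing therefore differed between 1 dpn and every other stage, and its part cannot be told apart from that of age. The labels give no sex, mother or litter. According to the study's methods the animals were sib pairs, so they are not all independent, and the p-values do not allow for it.

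Birth ends the supply of glucose through the umbilical cord, and the newborn liver turns to the fat and protein of colostrum and milk. Fatty acids are then oxidised in mitochondria and turned into ketone bodies under control of the nuclear receptor PPAR alpha, glucose is made from lactate, glycerol and amino acids, and the sterol pathway, which makes cholesterol from acetyl-CoA, is commonly turned down by cholesterol from milk. The liver also secretes most plasma proteins. These are folded in the endoplasmic reticulum (ER) by chaperones and disulfide isomerases whose genes belong to the unfolded protein response. In the fetus the liver is a site of red cell formation, which ends around birth.

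The newborn liver held 857 newborn peaks and 907 newborn troughs among 13841 tested probe-sets, which is 6.19% and 6.55%. A margin of at least 1 was reached by 137 peaks (0.99%) and 115 troughs (0.831%). A call required that 1 dpn differed from each of the 3 other stages in the same direction, and the largest of the 3 two-sided p-values of limma's moderated test was adjusted by Benjamini and Hochberg over all tested probe-sets, with a threshold of 0.05. Of the peaks 583 lay nearest to 94 dpc, 200 to 28 dpn and 74 to 188 dpn, and of the troughs 492, 230 and 185. The same rule gave 2705 peaks and 1488 troughs for 94 dpc, 318 and 99 for 28 dpn, and 636 and 1305 for 188 dpn, without a test of these differences in number. Because 94 dpc and 188 dpn end the age range, steady rises and falls with age count there too, so their counts are not a like measure. For 23 probe-sets (0.166%) all 16 newborn arrays lay above every array of the other stages, and for 16 (0.116%) all lay below.

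**Figure D1:**
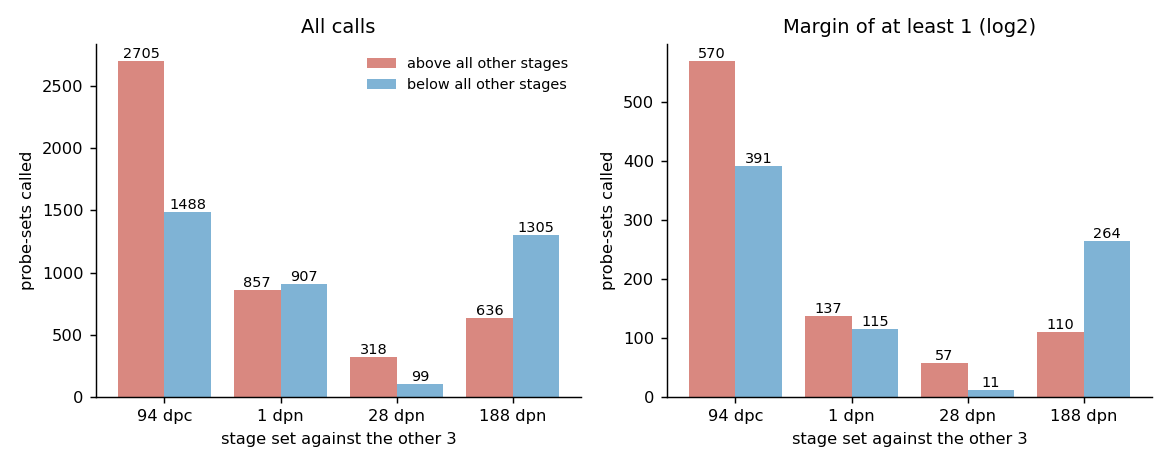
Number of probe-sets called above (red) or below (blue) all other stages when each stage on the x axis is set against the other 3, for all calls (left) and for a margin of at least 1 on the log2 scale (right). The newborn stage has 857 peaks and 907 troughs, more than 28 dpn with 318 and 99 and fewer than 94 dpc with 2705 and 1488.

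Hepatocyte markers were present at every stage. None of 12 tested hepatocyte markers was a peak or a trough, although 3 were peaks and 2 troughs after quantile normalization and 1 was a trough after centring, and ALB, the gene of albumin, had a mean log2 signal of 16.04 at 1 dpn against 15.97, 15.57 and 15.68 at the other stages from the youngest to the oldest. Probes of actin near its 3′ and 5′ ends, a sign of RNA quality and labelling, differed by 1.59 at 1 dpn (0.75 to 3.16), less than at 94 dpc (2.44), 28 dpn (3.66) and 188 dpn (4.10) on the log2 scale. Those of GAPDH differed by 0.54 at 1 dpn and by 1.09, 0.76 and 0.66 at 94 dpc, 28 dpn and 188 dpn, a smaller gap to the older stages. With the actin difference as a covariate, chosen after seeing the data, 427 newborn peaks and 503 newborn troughs were called, of which 325 and 368 were among those called without it. Of the 135 called probe-sets of the named genes 77 lost their call in this fit, and not all of these losses are given beside the results. With the difference between the 3′ and 5′ probes of the added RNAs as a covariate, which was 1.12 at 1 dpn and 0.33, 1.35 and 1.05 at 94 dpc, 28 dpn and 188 dpn, 640 newborn peaks and 620 newborn troughs were called. The actin difference varied with stage, so this covariate and stage are partly confounded and their parts cannot be told apart. With it a call could be lost with a smaller margin, as in HPD (2.55 without and 0.16 with the covariate). It could also be lost with a larger margin, as in DBT (0.51 and 0.71). The part of RNA quality in the results was not tested further.

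Single enzymes stood among the largest newborn peaks. HPD encodes the dioxygenase of the tyrosine breakdown pathway that acts on 4-hydroxyphenylpyruvate. Its lowest, median and highest log2 signals were 12.66, 13.65 and 14.88 at 1 dpn, 0.96, 5.23 and 7.99 at 94 dpc, 9.80, 9.99 and 10.89 at 28 dpn and 10.67, 11.14 and 11.40 at 188 dpn. All 16 newborn arrays lay above every other array, with a margin of 2.55 (SE 0.48, adjusted p = 4.71e-05) over 188 dpn, but with the actin covariate the margin was 0.16 and the call was lost. In the list of the urea cycle and amino acid breakdown HPD was the peak of 21 tested genes (4.76%, against 6.92% of all genes). Branched-chain amino acid breakdown held 1 peak of 15 (6.67%), DBT. It lost its call with the actin covariate, although its margin was 0.51 without and 0.71 with it. At 94 dpc HPD was above background on 6 of 16 arrays only, where background was the level below which 95% of the 23 blank controls of an array lay.

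GK, the kinase that admits glycerol to glucose and lipid synthesis, had lowest, median and highest signals of 8.76, 9.72 and 10.42 at 1 dpn, 2.93, 4.22 and 6.86 at 94 dpc, 6.53, 7.47 and 7.79 at 28 dpn and 4.36, 6.93 and 7.73 at 188 dpn. In this probe-set the newborn arrays did not overlap with the other stages, and the margin over 28 dpn was 2.26 (SE 0.33, adjusted p = 2.17e-07). The brighter of the 2 probe-sets of GK was not called. At 94 dpc the called probe-set was above background on 4 of 16 arrays. DHRS4, a reductase of retinal and other carbonyls, showed 11.50, 13.02 and 14.00 at 1 dpn, 9.99, 10.58 and 11.23 at 94 dpc, 9.93, 10.44 and 11.36 at 28 dpn and 8.66, 9.63 and 11.07 at 188 dpn. Again no newborn array overlapped another stage, and the margin was 2.18 (SE 0.17, adjusted p = 1.5e-15). HSD17B14, a hydroxysteroid dehydrogenase, stood at 9.48, 10.28 and 10.77 at 1 dpn, 6.76, 7.39 and 7.82 at 94 dpc, 7.57, 8.11 and 8.66 at 28 dpn and 7.76, 8.47 and 8.94 at 188 dpn, with a margin of 1.74 (SE 0.12, adjusted p = 1.2e-17) and without overlap.

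The largest margin of all tested probe-sets belonged to CBR2, a carbonyl reductase, with 3.36 (SE 0.50, adjusted p = 3.7e-07) over 28 dpn. Its signals at 1 dpn ran from 7.43 to 12.27 with a median of 9.10, and 13 of 16 newborn arrays lay above all others. At 94 dpc and 188 dpn it was above background on 3 of 16 arrays each, so only the comparison with 28 dpn, where 10 of 15 arrays were above background, has a measured partner. CBR2, SERPINB7, PPARA, SLC23A1, BOP1 and the probe-set of FKBP5 with the largest margin passed the filter on level, which asked for a signal over the array median on 50% or more of the arrays of a stage, through 1 dpn only. SERPINB7, a protease inhibitor, had a margin of 2.41 (SE 0.35, adjusted p = 2.05e-07). It exceeded background on 16 newborn arrays and on 8, 10 and 7 arrays at 94 dpc, 28 dpn and 188 dpn. GLUL, glutamine synthetase, which binds ammonia, had a margin of 1.61 (SE 0.27, adjusted p = 4.25e-06) in 1 of its 2 probe-sets. ALAS1, the first enzyme of heme synthesis in the liver, had 1.94 (SE 0.29, adjusted p = 4.48e-07) in 2 of its 3 probe-sets. SERPINB7, GLUL and ALAS1 lost the call with the actin covariate.

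FKBP5, a co-chaperone of the glucocorticoid receptor and one of its targets, had lowest, median and highest signals of 5.93, 7.85 and 10.54 at 1 dpn, 3.00, 5.95 and 6.50 at 94 dpc, 3.31, 5.35 and 6.04 at 28 dpn and 3.02, 5.41 and 7.23 at 188 dpn. The margin over 94 dpc was 2.16 (SE 0.35, adjusted p = 2.25e-06), both of its probe-sets were called, and it was above background on 15 newborn arrays but on 8, 3 and 7 arrays at 94 dpc, 28 dpn and 188 dpn. PPARA itself had a margin of 2.00 (SE 0.41, adjusted p = 0.000176), with signals at 1 dpn of 5.36, 7.28 and 8.89. It was above background on 14 newborn arrays and on 2, 5 and 8 arrays of the other stages, and with the actin covariate its newborn mean no longer lay above every other stage. NR1I2, the xenobiotic receptor PXR, had 1.07 (SE 0.19, adjusted p = 1.12e-05), a call lost with the same covariate.

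Of 17 tested glucocorticoid targets 2 were peaks (11.8%, against 6.92% of all genes), FKBP5, by its brighter probe-set with a margin of 1.04, and TP53INP2. None were troughs, but 2 were after centring and 1 was after quantile normalization. TP53INP2, which takes part in autophagy, had a margin of 1.48 (SE 0.28, adjusted p = 6.26e-05) over 28 dpn. TAT and PCK1, targets with roles in amino acid breakdown and gluconeogenesis, were not called, with mean signals of 13.30 and 13.45 at 1 dpn. NR3C1, the receptor gene, stood at 8.21 at 1 dpn and 8.26 at 94 dpc and was not called. SERPINA6, the plasma globulin that carries cortisol, was a trough, with lowest, median and highest signals of 10.05, 11.00 and 12.36 at 1 dpn, 12.50, 13.12 and 14.30 at 94 dpc, 10.81, 12.56 and 13.84 at 28 dpn and 12.48, 14.24 and 14.87 at 188 dpn. Its margin was −1.31 (SE 0.25, adjusted p = 4.77e-05) below 28 dpn, and 7 of 16 newborn arrays lay below all others.

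**Figure D2:**
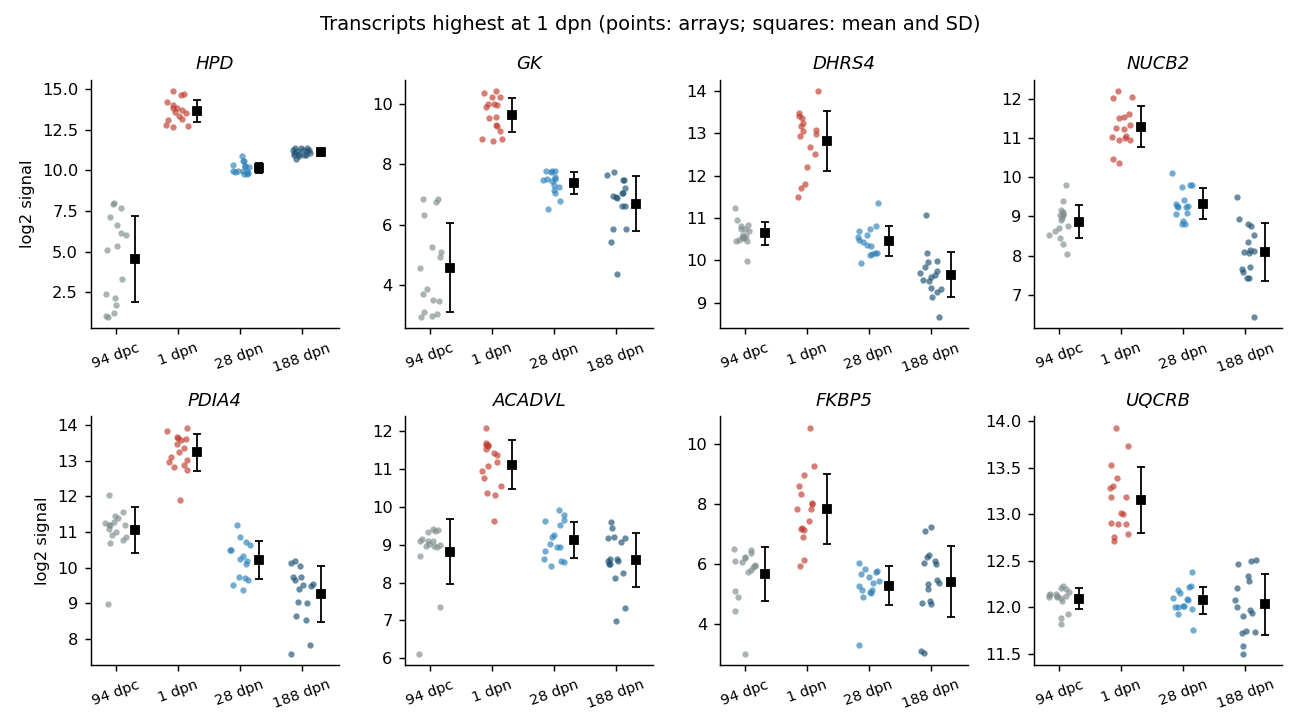
Log2 signals of 8 genes with newborn peaks, each in its probe-set with the largest margin, at the 4 stages on the x axis. Points are arrays, and black squares with bars are the stage mean ± SD. HPD, GK, DHRS4, NUCB2 and UQCRB show no overlap of the 16 newborn arrays with the other stages, whereas FKBP5 overlaps with every other stage.

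More than any other list with at least 10 tested genes, the chaperones of the ER were newborn peaks. Of 20 tested genes of the unfolded protein response and ER chaperones 12 were peaks, which is 60% against 6.92% of all 5507 genes with a symbol, 1 was a trough and 7 were not called. The median difference of the list was 1.08 against 94 dpc, 0.76 against 28 dpn and 1.60 against 188 dpn, beside −0.03, 0.02 and 0.11 for all genes. The peaks and troughs numbered 14 and 0 after quantile normalization and 11 and 0 after centring on the median, but 4 and 0 with the actin covariate. Those 4 were HSP90B1, DNAJC3, UFM1 and SERP1, whereas HSPA5, HYOU1, DNAJB9, DNAJB11, SDF2L1, PDIA3, CRELD2, MANF and XBP1 were not called in their brightest probe-sets. The probe-sets of DNAJB9 and PDIA4 with the largest margins kept their calls. With the covariate of the added RNAs HSPA5, SERP1 and XBP1 lost their calls in their brightest probe-sets.

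Among the chaperones HSP90B1, the HSP90 form of the ER, had a mean signal of 13.74 at 1 dpn against 12.46, 12.63 and 11.83 at 94 dpc, 28 dpn and 188 dpn (margin 1.11, SE 0.15). HYOU1, which helps BiP to exchange nucleotide, followed with a margin of 1.08 (SE 0.16) and HSPA5, BiP itself, with 0.42 (SE 0.13). The J proteins, partners of BiP, were called in DNAJB11 with 1.36 (SE 0.16, adjusted p = 1.77e-09), in DNAJC3 with 1.22 (SE 0.14) and in all 3 probe-sets of DNAJB9 with at most 1.24 (SE 0.17, adjusted p = 7.8e-08). DNAJB11 ran from 10.77 to 12.36 (median 11.65) at 1 dpn and from 9.63 to 11.55 (median 10.24) at 28 dpn, and 11 of 16 newborn arrays lay above all others.

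The disulfide isomerases depended on the probe-set. PDIA3 was a peak in all 3 of its probe-sets, with a largest margin of 1.46 (SE 0.24, adjusted p = 2.94e-06). PDIA4 was called in 2 of 3 probe-sets. In the one with the largest margin the lowest, median and highest signals were 11.91, 13.31 and 13.93 at 1 dpn, 8.97, 11.19 and 12.04 at 94 dpc, 9.36, 10.24 and 11.20 at 28 dpn and 7.58, 9.50 and 10.20 at 188 dpn, and the margin was 2.19 (SE 0.22, adjusted p = 5.21e-12). The brightest probe-set of PDIA4 was not called, with mean signals of 13.47 at 1 dpn and 13.57 at 28 dpn. SDF2L1, CRELD2 and MANF, further proteins induced by ER stress, had margins of 0.86, 1.07 and 0.54. XBP1, a transcription factor of the unfolded protein response, was the trough of the list with −0.24 (SE 0.08, adjusted p = 0.0478), and CALR, the lectin chaperone calreticulin, was not called, with means of 10.22 at 1 dpn and 11.90 at 28 dpn.

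Machinery that carries proteins into and out of the ER contributed fewer peaks. Of 30 tested genes 5 were peaks (16.7%, against 6.92% of all genes) and none were troughs. With the actin covariate SRP54 and SRP72 kept their calls, while SRP14, SEC23B and MCFD2 lost theirs. SRP72 lost its call with the covariate of the added RNAs. SRP54, the subunit of the signal recognition particle that binds the signal peptide, had signals of 10.25, 10.74 and 11.07 at 1 dpn, 9.34, 9.86 and 10.07 at 94 dpc, 8.51, 9.26 and 9.65 at 28 dpn and 8.53, 9.25 and 9.84 at 188 dpn, without overlap and with a margin of 0.90 (SE 0.11, adjusted p = 1.16e-09). SEC61A1, the channel of the ER membrane, was a peak in 2 of 3 probe-sets with a largest margin of 1.29 (SE 0.27, adjusted p = 0.000256), but not in its brightest one. TRAM1, a neighbour of the channel, was called in 1 of 4 probe-sets with 1.06 (SE 0.22, adjusted p = 0.000197). Outside the lists NUCB2, a calcium-binding protein of the Golgi and precursor of nesfatin, had 10.37, 11.24 and 12.20 at 1 dpn, 8.05, 8.93 and 9.80 at 94 dpc, 8.81, 9.26 and 10.12 at 28 dpn and 6.43, 8.12 and 9.50 at 188 dpn, with a margin of 1.96 (SE 0.19, adjusted p = 2.52e-12) and no overlap. TMED5, a cargo receptor between ER and Golgi, had a margin of 1.68 (SE 0.16, adjusted p = 1.54e-12), and 2 of its 3 probe-sets were called. SEC61A1 and TRAM1 lost their calls with the actin covariate.

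**Figure D3:**
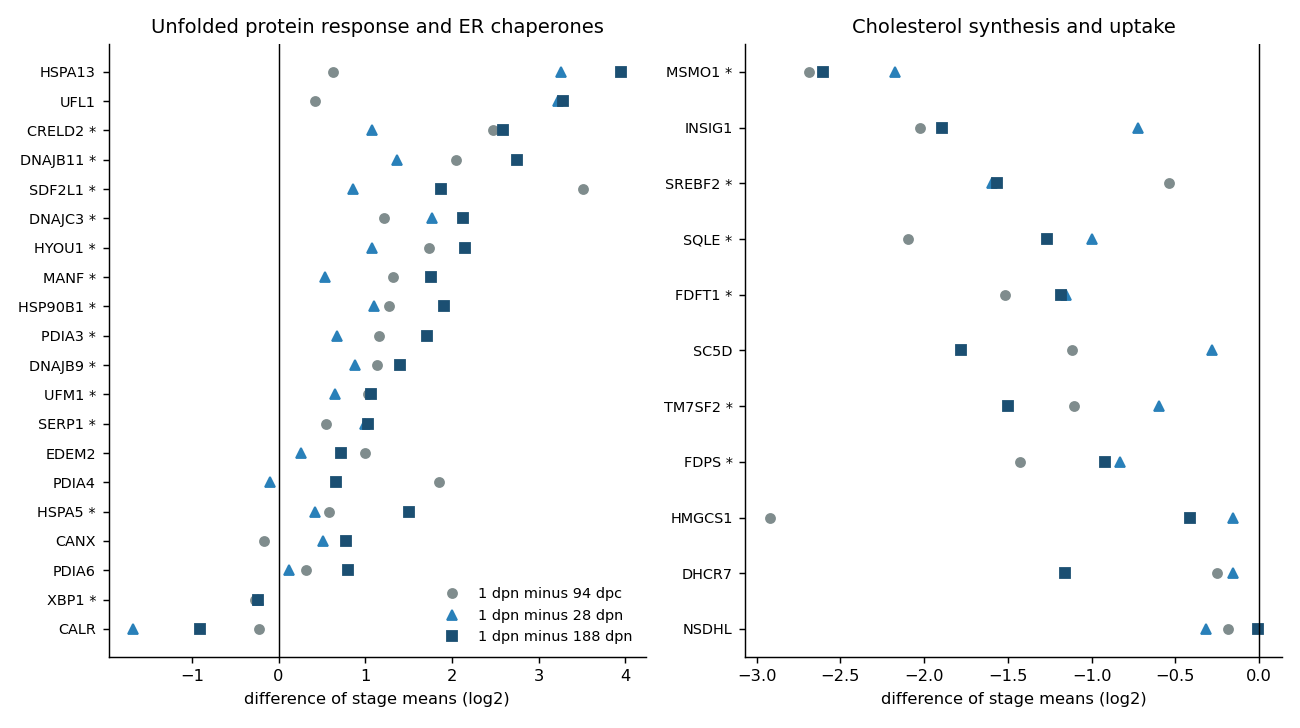
Difference of the 1 dpn mean from each other stage mean (x axis, log2) for the tested genes of 2 lists, except 1 gene of the second list that is not reported, with an asterisk on genes called as peak or trough; circles, triangles and squares stand for 94 dpc, 28 dpn and 188 dpn. In the list of ER chaperones 12 genes are peaks and XBP1 is the trough, and in the list of cholesterol synthesis and uptake 6 genes are troughs.

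A part of the genes of fatty acid oxidation stood above all other stages at birth. Of 25 tested PPAR alpha targets and genes of ketogenesis 6 were peaks (24%, against 6.92% of all genes), none were troughs and 19 were not called. PPARA, among the 6 peaks, had passed the filter on level through 1 dpn only. The median differences were 0.96 against 94 dpc, 0.03 against 28 dpn and −0.26 against 188 dpn. HADHA and HADHB, the subunits of the mitochondrial trifunctional protein, had mean signals of 12.57 and 12.86 at 1 dpn and margins of 0.66 (SE 0.11) and 0.60 (SE 0.09). ETFDH and ETFA, which pass electrons from fatty acid oxidation to ubiquinone, were called as well. ETFDH had a largest margin of 1.01 (SE 0.12, adjusted p = 3.32e-09), and 0.54 in its brighter probe-set.

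PLIN2, a coat protein of lipid droplets, had lowest, median and highest signals of 11.40, 13.05 and 14.06 at 1 dpn, 11.20, 11.89 and 12.37 at 94 dpc, 8.72, 10.23 and 11.60 at 28 dpn and 7.63, 8.58 and 11.28 at 188 dpn. The margin over 94 dpc was 1.11 (SE 0.26, adjusted p = 0.00101), and 13 of 16 newborn arrays lay above all others. ACADVL, the first dehydrogenase for long-chain fatty acids, was called in 1 of 2 probe-sets with 1.99 (SE 0.24, adjusted p = 3.14e-09), while its brighter probe-set had a margin of 0.49 and was not called (adjusted p = 0.0998). With the actin covariate PPARA and the probe-sets of ACADVL and ETFDH with the larger margins were not called. HADHA, HADHB, ETFA, PLIN2 and the brighter probe-set of ETFDH were called. With the covariate of the added RNAs PLIN2 and ETFA lost their calls. CPT1A, which admits long-chain fatty acids to mitochondria, was no peak, with mean signals of 12.06 at 1 dpn and 12.73 at 28 dpn.

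A few subunits of the respiratory chain were peaks. Of 39 tested genes of the chain and of ATP synthase 4 were called (10.3%, against 6.92% of all genes), none as troughs, and 3 of them had a margin of at least 1. After quantile normalization 10 were peaks. UQCRB of complex III had signals of 12.71, 13.10 and 13.93 at 1 dpn, 11.82, 12.12 and 12.23 at 94 dpc, 11.76, 12.07 and 12.37 at 28 dpn and 11.50, 11.99 and 12.51 at 188 dpn, with a margin of 1.07 (SE 0.09, adjusted p = 9.03e-14). NDUFB3 and NDUFS1 of complex I had margins of 1.15 (SE 0.10, adjusted p = 2.45e-13) and 0.78 (SE 0.09, adjusted p = 1.37e-09). In these 3 genes the newborn arrays did not overlap with the other stages. CYCS, cytochrome c, had 1.05 (SE 0.20, adjusted p = 4.1e-05). The list medians were 0.65 against 94 dpc, −0.09 against 28 dpn and −0.11 against 188 dpn.

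Carriers and glucose genes gave a few peaks. Of 13 tested genes of glycolysis and fructose 3 were peaks (23.1%, against 6.92% of all genes), ENO1, LDHB and SLC2A2, and none were troughs. Of 17 tested genes of gluconeogenesis and glycogen 1 was a peak (5.88%), MDH1, and none were troughs. SLC2A2, the glucose transporter GLUT2 of hepatocytes, had 10.64, 11.38 and 12.13 at 1 dpn, 9.30, 10.69 and 10.99 at 94 dpc, 10.09, 10.55 and 10.89 at 28 dpn and 9.83, 10.50 and 11.14 at 188 dpn and a margin of 0.78 (SE 0.13, adjusted p = 7.11e-06). PCK2, the mitochondrial form of PEPCK in gluconeogenesis, was a peak in 1 of 3 probe-sets, not the brightest, with 0.93 (SE 0.13, adjusted p = 1.07e-07). Of 13 tested solute carriers of amino acids and vitamins 4 were peaks, which is 30.8% against 6.92% of all genes, and none were troughs. SLC23A1, a transporter of vitamin C, had a margin of 1.29 (SE 0.38, adjusted p = 0.0119), but passed the filter on level through 1 dpn only. SLC7A9, of cystine, had 0.99 (SE 0.28, adjusted p = 0.0103), the first value below a margin of 1. On the other side of that limit stood ARPC2, a subunit of the actin nucleating complex, with 1.00. All 4 calls of the carriers, and those of SLC2A2, ENO1, LDHB, PCK2 and ARPC2, were lost with the actin covariate.

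Protein turnover and ribosome assembly held further peaks. Of 31 tested genes of the proteasome 6 were peaks (19.4%), led by PSMA3 with 0.68 (SE 0.09, adjusted p = 2.32e-08), PSMD1 with 0.65 and PSMD14 with 0.61, and none were troughs. After quantile normalization 9 were peaks. With the actin covariate PSMA5, PSMC1 and PSMC2 of these 6 lost their calls, and with the covariate of the added RNAs PSMC2 and PSMD14 did. The list medians were 0.33 against 94 dpc, −0.24 against 28 dpn and 0.00 against 188 dpn. Of 24 genes of ribosome biogenesis 4 were peaks (16.7%, against 6.92% of all genes). These were BOP1, WDR12 and PES1, partners in the maturation of the large subunit, and NIP7. WDR12, PES1 and NIP7 had margins of 0.72, 0.44 and 0.34. BOP1 was above background on 12 newborn arrays and on 7, 2 and 2 arrays at 94 dpc, 28 dpn and 188 dpn, so the size of its margin is not exact (adjusted p = 0.0428). It had passed the filter on level through 1 dpn only. None of these 4 was called with the actin covariate. BUD23, a methyltransferase of ribosomal RNA outside this list, had signals of 9.66, 10.77 and 11.99 at 1 dpn, 7.93, 8.88 and 9.45 at 94 dpc, 7.70, 8.90 and 9.26 at 28 dpn and 6.90, 8.20 and 8.76 at 188 dpn, a margin of 1.95 (SE 0.17, adjusted p = 1.17e-13) in 1 of 2 probe-sets and no overlap. Heat shock proteins of the cytosol and mitochondria were peaks in 3 of 16 genes (18.8%, against 6.92% of all genes). STIP1 lost its call with the actin covariate, and HSPA4 and HSPA9 lost theirs with the covariate of the added RNAs.

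Of 13 tested genes of AMPK, mTOR and energy sensing 2 were peaks (15.4%, against 6.92% of all genes), RHEB and PRKAA1, and none were troughs. The list medians were −0.01 against 94 dpc, −0.11 against 28 dpn and −0.17 against 188 dpn. RHEB, the activator of mTOR, had a margin of 0.58 (SE 0.08, adjusted p = 4.06e-08), with 15 of 16 newborn arrays above all others. PRKAA1, a catalytic subunit of AMPK, was a peak in 1 of 3 probe-sets with 0.47 (SE 0.17, adjusted p = 0.0493), and was not called with the actin covariate. PPARGC1A, a coactivator of PPAR alpha, was not called, with a margin of 0.39 (SE 0.25, adjusted p = 0.544) and newborn signals from 7.88 to 11.39. NDUFA4, DHCR7 and GADD45B, which the study had also measured by PCR, were not called, with margins of 0.13, −0.16 and −0.63. PRKAA2, NDUFS7 and NDUFS8 lay between the other stages at 1 dpn.

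**Figure D4:**
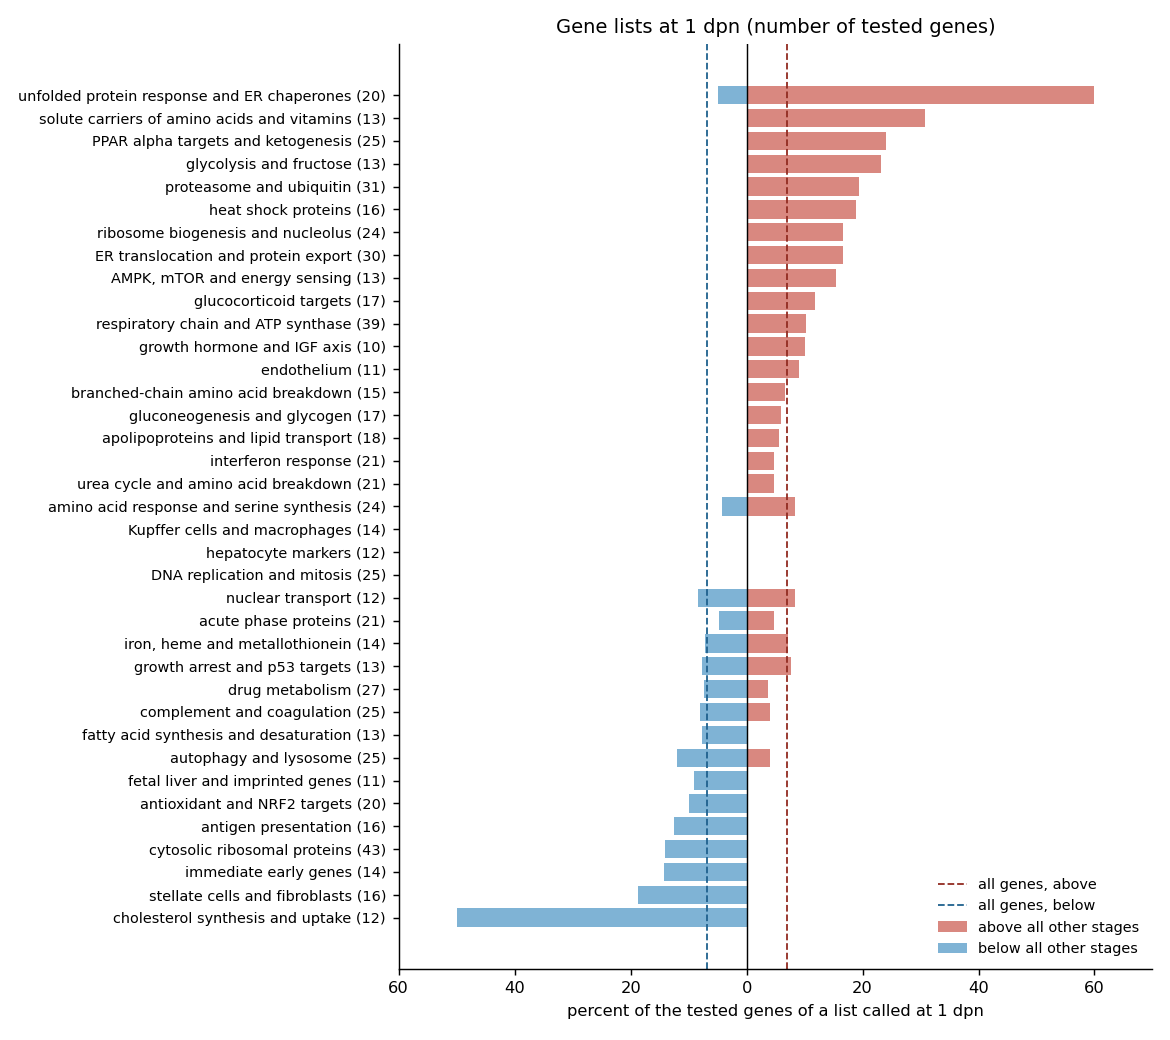
Percent of the tested genes of each list, with their number in parentheses, that were newborn peaks (red, right) or newborn troughs (blue, left), for lists with at least 10 tested genes; dashed lines give the percent over all genes. The list of ER chaperones reaches 60% peaks and that of cholesterol synthesis 50% troughs, against 6.92% and 6.88% of all genes.

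A large part of the genes of cholesterol synthesis was lowest in newborns. Of 12 tested genes 6 were troughs (50%), none were peaks and 6 were not called, against 6.88% troughs among all genes. The median differences were −1.47, −0.66 and −1.23 against 94 dpc, 28 dpn and 188 dpn. There were 6 troughs after quantile normalization and 7 after centring, but none with the actin covariate. MSMO1, a methyl oxidase of sterol synthesis, had lowest, median and highest signals of 8.16, 10.87 and 13.89 at 1 dpn, 13.33, 13.65 and 14.30 at 94 dpc, 12.37, 13.26 and 13.94 at 28 dpn and 12.45, 13.89 and 14.48 at 188 dpn. The margin of one of its 2 probe-sets was −2.17 (SE 0.32, adjusted p = 2.26e-07), and 13 of 16 newborn arrays lay below all others.

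Steps upstream of MSMO1 were low as well. FDFT1, squalene synthase, had 8.98, 11.44 and 12.67 at 1 dpn, 12.64, 12.84 and 13.45 at 94 dpc, 11.81, 12.53 and 13.08 at 28 dpn and 11.83, 12.44 and 13.55 at 188 dpn, with a margin of −1.15 (SE 0.21, adjusted p = 2.33e-05). SQLE, squalene epoxidase, had −1.0 (SE 0.28, adjusted p = 0.00944), the first trough short of a margin of −1 (LAT, a signal adaptor of T cells, at −1.01, was the last to reach it and lost its call with either covariate), and FDPS, which makes farnesyl diphosphate, −0.83 (SE 0.23, adjusted p = 0.007). SREBF2, the transcription factor of the pathway, had mean signals of 9.85 at 1 dpn and 10.38, 11.44 and 11.41 at 94 dpc, 28 dpn and 188 dpn, with a margin of −0.54 (SE 0.13). HMGCS1, an early enzyme of the pathway, was not a trough, with means of 9.59 at 1 dpn and 9.74 at 28 dpn.

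Newborn arrays differed widely in this pathway. Averaged over FDPS, SQLE, FDFT1 and MSMO1, arrays HP 23, HP 24 and HP 26 lay 1.90, 1.89 and 1.72 above the newborn mean, and HP 20 lay 1.95 below it. The other 12 newborn arrays ran from −1.17 to 0.63. Over all troughs with a margin of at least 1 the median SD was 0.93 at 1 dpn and 0.50, 0.41 and 0.45 at 94 dpc, 28 dpn and 188 dpn. For the peaks with a margin of at least 1 it was 0.53 at 1 dpn, within the 0.50 to 0.62 of the other stages.

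Among other genes of lipid and liver metabolism DGAT2, which makes triglycerides, had signals of 8.89, 9.86 and 10.84 at 1 dpn, 11.10, 11.58 and 12.02 at 94 dpc, 11.82, 12.40 and 12.66 at 28 dpn and 11.86, 12.23 and 13.09 at 188 dpn. All 16 newborn arrays lay below every other array, with a margin of −1.63 (SE 0.14, adjusted p = 9.12e-15). HAO1, a peroxisomal oxidase of glycolate, had 9.11, 11.02 and 12.36 at 1 dpn, 12.33, 12.70 and 13.52 at 94 dpc, 11.95, 12.38 and 13.12 at 28 dpn and 12.17, 12.65 and 13.04 at 188 dpn and a margin of −1.61 (SE 0.23, adjusted p = 9.74e-08), which was not called with the actin covariate. APOF, an apolipoprotein that regulates lipid transfer, had a margin of −1.33 (SE 0.10, adjusted p = 5.27e-16), with 15 of 16 newborn arrays below all others. PROC, the anticoagulant protein C of plasma, showed no overlap, with 13.37, 13.64 and 14.02 at 1 dpn, 14.21, 14.59 and 14.83 at 94 dpc, 14.32, 14.77 and 15.14 at 28 dpn and 14.49, 14.92 and 15.27 at 188 dpn and a margin of −0.88 (SE 0.08, adjusted p = 7.85e-14).

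STAT5B, which carries the signal of the growth hormone receptor, had 6.19, 7.98 and 8.66 at 1 dpn, 8.38, 9.23 and 10.05 at 94 dpc, 8.88, 9.40 and 10.02 at 28 dpn and 8.75, 9.47 and 9.86 at 188 dpn, with a margin of −1.37 (SE 0.16, adjusted p = 4.16e-10) in 1 of 2 probe-sets. In the list of the growth hormone and IGF axis 1 of 10 tested genes was a peak (10%, against 6.92% of all genes) and none were troughs. The peak was IGF1R, a growth factor receptor, with a margin of 0.61 in 1 of 2 probe-sets, a call lost with the actin covariate. After quantile normalization or centring none were peaks and 1 was a trough. Of 14 tested immediate early genes 2 were troughs (14.3%, against 6.88% of all genes) and none were peaks. The troughs were CYR61 with −1.64 (SE 0.21, adjusted p = 1.41e-08) and EGR1 with −1.13 (SE 0.32, adjusted p = 0.01) in 1 of 3 probe-sets. CYR61 ran from 6.62 to 7.67 at 1 dpn, below the 8.48 to 9.87 of 28 dpn and the 9.10 to 10.73 of 188 dpn, and overlapped with 94 dpc. FOS and JUN were not called, with margins of −0.70 and −0.50. CXCL12, a chemokine of stromal cells, was called in both of its probe-sets, with a largest margin of −1.35 (SE 0.15, adjusted p = 2.31e-10). EGR1 was not called with the actin covariate.

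AQP1, a water channel of bile ducts, endothelium and red cells, had lowest, median and highest signals of 7.67, 8.63 and 9.04 at 1 dpn, 10.83, 11.64 and 12.29 at 94 dpc, 9.56, 10.04 and 10.76 at 28 dpn and 9.85, 10.63 and 11.09 at 188 dpn. All 16 newborn arrays lay below every other array in this probe-set, with a margin of −1.53 (SE 0.15, adjusted p = 1.32e-12), while the other of its 2 probe-sets was not a trough. Of 9 tested genes of red cell precursors 3 were troughs (33.3%, against 6.88% of all genes). HBM, a globin, had 7.58, 8.77 and 9.31 at 1 dpn, 11.90, 12.36 and 13.03 at 94 dpc, 9.88, 10.41 and 11.98 at 28 dpn and 9.26, 10.06 and 10.68 at 188 dpn, with a margin of −1.40 (SE 0.16, adjusted p = 5.84e-10) below 188 dpn. AHSP, the chaperone of alpha globin, had −0.94 (SE 0.24, adjusted p = 0.00364), and ALAS2, the first enzyme of heme synthesis in red cells, −0.79 (SE 0.16, adjusted p = 0.000137). The summed linear signal of the list was 3397 to 6759 at 1 dpn, 21830 to 49050 at 94 dpc, 5818 to 17130 at 28 dpn and 4707 to 9212 at 188 dpn. KLF1 and HBB did not follow this pattern and were higher at 1 dpn than at 28 dpn and 188 dpn. In whole liver fewer cells of a type and less RNA per cell cannot be told apart. None of the 3 troughs was called with the actin covariate.

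**Figure D5:**
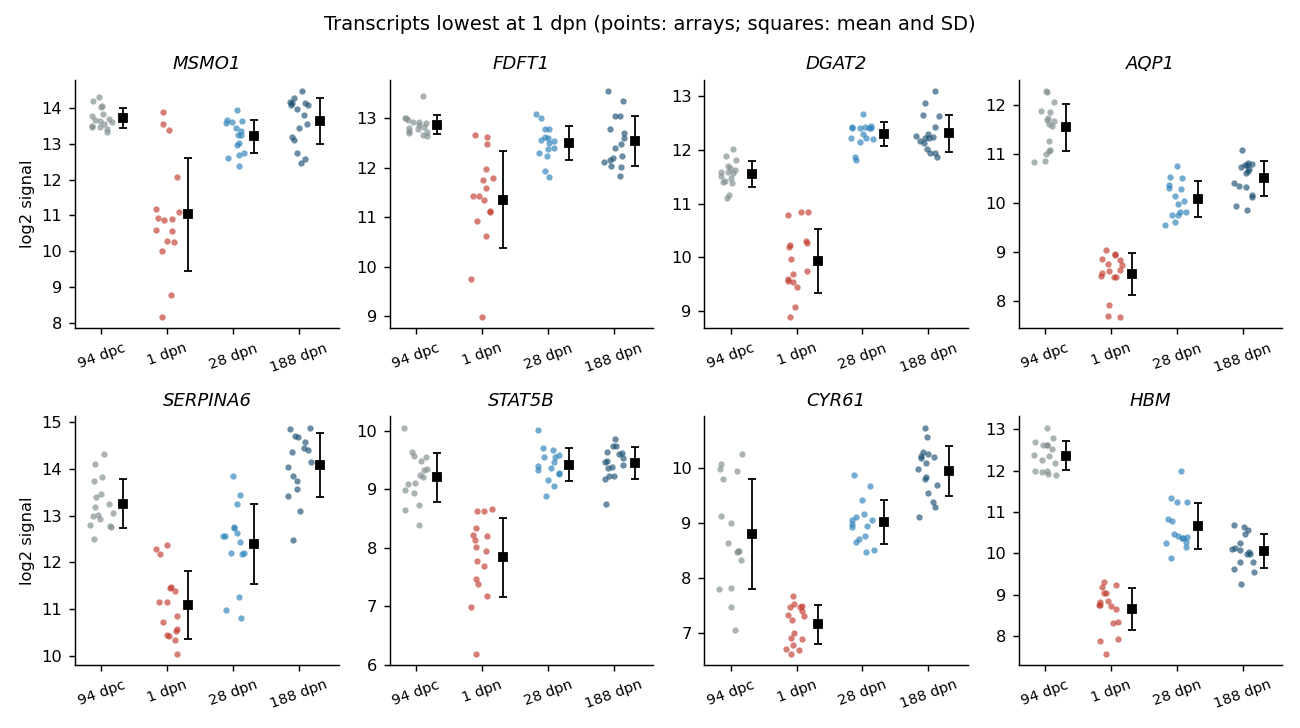
Log2 signals of 8 genes with newborn troughs at the 4 stages on the x axis; points are arrays, and black squares with bars are the stage mean ± SD. DGAT2 and AQP1 show no overlap of the 16 newborn arrays with the other stages, and MSMO1 runs from 8.16 to 13.89 among newborns.

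Some markers of lymphocytes and of antigen presentation were lowest at 1 dpn. CD83, a surface protein of activated dendritic cells and lymphocytes, had 3.03, 5.85 and 7.77 at 1 dpn, 5.48, 7.85 and 8.75 at 94 dpc, 7.62, 8.42 and 9.10 at 28 dpn and 7.03, 8.29 and 8.73 at 188 dpn. The margin was −2.39 (SE 0.32, adjusted p = 2.25e-08) below 94 dpc, but CD83 was above background on 7 of 16 newborn arrays only, so its size is not exact. CTSW, a protease of cytotoxic lymphocytes, had a margin of −1.39 (SE 0.33, adjusted p = 0.00124). It exceeded background on 7 newborn arrays and lost its call with the actin covariate. GNLY, a protein of cytotoxic granules, was above background on no newborn array and on 3 of 16 arrays at 94 dpc, 15 of 15 at 28 dpn and 16 of 16 at 188 dpn. Its difference from 94 dpc, the nearest stage, therefore rests on signals mostly below background. CD83, CTSW and GNLY, like LCK, LAT and JCHAIN, passed the filter on level through other stages only.

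Of 14 genes of T and NK cells on the array 7 were tested. Of these 3 were troughs (42.9%, against 6.88% of all genes), GNLY, LCK and CCL5, and 4 were not called. GNLY and LCK had passed the filter on level only through 28 dpn or 188 dpn, where they were high, so this share depends on the filter. CD3D, a subunit of the T cell receptor complex, had means of 6.24 at 1 dpn and 6.96 at 94 dpc and was not called (adjusted p = 0.0876). The summed linear signal of the list was 437 to 1240 at 1 dpn, 472 to 1963 at 94 dpc, 1928 to 5004 at 28 dpn and 1880 to 4341 at 188 dpn. JCHAIN, which joins IgA and IgM, had −1.01 (SE 0.24, adjusted p = 0.00137) and was not called with the actin covariate. Of 16 tested genes of antigen presentation 2 were troughs (12.5%, against 6.88% of all genes). These were the class II genes SLA-DRA with −1.02 (SE 0.23, adjusted p = 0.000601) and SLA-DQB1 with −0.79 (SE 0.22, adjusted p = 0.00765). SLA-DQB1, LCK and the stromal gene DCN lost their calls with the covariate of the added RNAs. Of 14 markers of Kupffer cells and macrophages none were peaks or troughs, and their summed signal was 26110 to 61100 at 1 dpn, 5191 to 37400 at 94 dpc, 83310 to 111800 at 28 dpn and 73130 to 101400 at 188 dpn. The part of the number of immune cells in these troughs was not tested.

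Stromal markers gave 3 troughs of 16 tested genes (18.8%, against 6.88% of all genes). These were PDGFRB, a receptor of stellate cells, with −0.68 (SE 0.10, adjusted p = 1.55e-07), and the matrix proteoglycans DCN and BGN with −0.84 and −0.81. The summed signal of the list was 14750 to 38830 at 1 dpn, 14460 to 33300 at 94 dpc, 24500 to 42780 at 28 dpn and 19970 to 36870 at 188 dpn, and the part of the number of stromal cells was not tested. COL1A2, a chain of type I collagen, was not called, with a mean of 9.30 at 1 dpn and 8.82 to 9.16 at the other stages. Of 43 tested cytosolic ribosomal proteins 6 were troughs (14%) and none were peaks, with 5 troughs and 2 peaks after quantile normalization and 17 troughs and no peaks after centring. RPLP1, of the ribosomal stalk, had signals of 14.04, 14.22 and 14.39 at 1 dpn, 14.96, 15.23 and 15.51 at 94 dpc, 14.51, 14.64 and 15.21 at 28 dpn and 14.50, 14.88 and 15.11 at 188 dpn in 1 of 2 probe-sets, without overlap and with a margin of −0.46 (SE 0.07, adjusted p = 2.54e-07). All 6 calls were lost with the actin covariate, and ribosomal protein genes have many near-identical copies that probes may share.

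No gene was called among 25 tested genes of DNA replication and mitosis, 12 hepatocyte markers and 8 markers of neutrophils and myeloid precursors in the main comparison. Without arrays HP 25, HP 27 and HP 28 of 1 dpn, 5 genes of DNA replication were peaks. Interferon response genes held 1 peak of 21, EIF2AK2, the kinase PKR, with 0.95 (SE 0.22, adjusted p = 0.00102). Complement and coagulation held 1 peak and 2 troughs of 25, and drug metabolism 1 peak and 2 troughs of 27. These shares lie near the 6.92% and 6.88% of all genes.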

How the data were processed

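Liver RNA of HP offspring was measured on Affymetrix porcine arrays, 1 per animal. The authors deposited log2 signals of 24123 probe-sets, made with GCOS 1.1.1 per the labels. The values behave as MAS5 signals scaled to a trimmed mean of 500 (top and bottom 2% left out), without normalization between arrays, and signals under 1 stand at log2 0. The GCRMA values and the mixed model with sex and mother that the study used were not applied here.

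Control probe-sets (188) were left out. Of the other 23935, 10073 carry exactly 1 symbol, 4 of these named from the study's primer list, 198 carry several and 13664 none. Tested were the 13841 probe-sets that exceeded the array median on 50% or more of the arrays of at least 1 stage. Of the peaks 61 passed this filter through 1 dpn only, and 141 troughs passed it only through other stages. With a margin of at least 1 these were 32 of 137 peaks and 55 of 115 troughs. A model with 4 stages was fitted with limma 3.58.1 in R 4.3.3 (lmFit, eBayes), and the largest of 3 p-values was used as described beside the first counts. The number of arrays limits the precision, and no depth exists for arrays. Lists used 1 probe-set per gene, the one with the highest mean. Named genes are the 20 largest peaks and troughs, up to 4 called genes per list with the largest margins, genes the study measured by PCR, and those next to a margin of 1, each with the probe-set of the largest margin. Further list members are named as examples, picked with their values in view. The members, lists and rules were chosen with earlier results of these data known. The procedure was tested on simulated data. Alternatives were other filters, scalings, tests, thresholds, covariates and left-out arrays or stages. No sequences were used. The values of 1 gene of the lists are not reported here.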

Additional observations from a re-analysis of the deposited data

How the results depend on the processing

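Over 18 alternatives the number of newborn peaks was within 1.5 times of 857 in 16 (572 to 1100) and that of newborn troughs within 1.5 times of 907 in 15 (620 to 1181). For newborn peaks with a margin of at least 1 this held in 16 (95 to 203) and for newborn troughs with a margin of at least 1 in 16 (98 to 161). With the actin 3′ to 5′ difference as a covariate, chosen after seeing the data, there were 427 newborn peaks and 503 newborn troughs. Without 94 dpc, and so with 1 comparison fewer to pass, the counts were 5070 and 3019, and 2095 and 771 with a margin of at least 1. Without the 25% of probe-sets of the lowest SD 597 newborn troughs were called. With the filter at the 75th percentile, and so with fewer probe-sets tested, 87 newborn peaks with a margin of at least 1 and 70 newborn troughs with a margin of at least 1 were called. Leaving out doubtful arrays (HP 06, HP 06 and HP 13, or HP 25, HP 27 and HP 28, and HP 23 after seeing the data) gave 752 to 873 newborn peaks and 836 to 945 newborn troughs. No margin of a named gene changed sign where the setting gave one. A margin exists only where all differences from the other stages share a sign, so this outcome was nearly fixed in advance. With the actin covariate the called probe-sets of BOP1, C7, GPAM, HSPA9, IGF1R, KDELR3, LYVE1, PPARA and SEC61A1 had no margin. In these at least 1 difference no longer had the direction of the call. Of the 135 called probe-sets of named genes 45 kept their call under every alternative that gave a value, and 41 lost it with the actin covariate only. The cause was not tested. Probe-sets of CTNNB1, POLDIP3 and RAN were called in both directions. No paired analysis was possible because the labels give the stages no shared replicate numbers. The planned search for motifs in promoters was not run.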
